A study of Homo sapiens with 6 samples.

Results

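The mRNAs of the translation factors eIF1, eIF1A, eIF2, eIF5, eIF5A, eIF5B and eIF6 were followed in RNA immunoprecipitated with LARP1. They are encoded by 9 genes (EIF1, EIF1AX, EIF2S1, EIF2S2, EIF2S3, EIF5, EIF5A, EIF5B and EIF6), picked by Ensembl ID from the 60554 IDs of the count tables. All 9 passed the filter on low counts and were among the 10788 genes tested. The RNA came from the free 40S fraction of a sucrose gradient, which holds small ribosomal subunits outside assembled ribosomes, although the sample descriptions also use the word monosome for it. The cells were HCT116, an established human colon carcinoma line, and no treatment, genotype or time point is given for them. RNA was sequenced from 3 groups of 2 libraries that the labels call biological replicates: an immunoprecipitate with anti-LARP1 antibody (LARP1 IP), a background immunoprecipitate with IgG of normal rabbit serum (IgG IP), and fraction RNA without antibody (Input). All groups share the cell line and the fraction, so the values describe what was recovered there and not in whole cells or polysomes. Libraries held 4135463 to 8069554 counts.

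Eukaryotic initiation starts on the small ribosomal subunit. eIF1 and eIF1A hold it in a state that scans the mRNA, the 3 subunits of eIF2 bring the initiator tRNA with GTP, and eIF5 makes eIF2 hydrolyse that GTP once a start codon is found. eIF5B then joins the large subunit, eIF6 sits on free large subunits and keeps them from joining, and eIF5A, despite its name, mainly helps ribosomes through elongation and termination. LARP1 binds RNA and is best known for holding mRNAs whose transcripts begin with a C followed by an unbroken run of pyrimidines (the terminal oligopyrimidine or TOP motif), a class that includes ribosomal protein and several translation factor mRNAs. The comparison of the LARP1 IP with its 2 controls addresses which mRNAs associate with LARP1 in this fraction.

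Since the TOP motif lies at the first base of a transcript, annotated gene starts are shown first. RefSeq (GRCh38.p14) gave 15 annotated starts for 8 of the 9 genes, with EIF2S2 having no entry. Each printed window holds the 10 bases before the start and the first 20 bases of the first exon, 5′ to 3′ on the strand of the gene. Capitals mark a C followed by at least 4 pyrimidines (C or T) that begins within 10 bases of the start, together with the pyrimidines that continue it. The upstream and downstream starts of EIF6 lie at chr20:35284753-35284782 and chr20:35284698-35284727 on the minus strand. The plus-strand windows lie at chrX:24054946-24054975 for EIF2S3, chr17:41688875-41688904 for EIF1, chr14:103334878-103334907 for the downstream start of EIF5, chr14:67360318-67360347 for EIF2S1 and chr2:99337379-99337408 for EIF5B. They are shown because EIF6 and EIF5B are the extremes of the group in the LARP1 IP, EIF1 and EIF2S3 lie between them, and EIF5 and EIF2S1 lie near the bulk of genes.
EIF6, upstream start: CTTTTTagggagtccaaggtacagtcgccg
EIF6, downstream start: tggtaagctggtgtgaggggaacctgggag
EIF2S3: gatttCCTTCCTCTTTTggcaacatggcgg
EIF1: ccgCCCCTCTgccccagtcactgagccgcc
EIF5, downstream start: ggcaCCCCTCggccgtgtgtcgcttcccgg
EIF2S1: gaggttccgcatgcgcggtggagtgagcga
EIF5B: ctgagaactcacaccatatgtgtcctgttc

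A C followed by 4 pyrimidines exactly at the annotated start was found at 1 of the 15 starts, that of EIF2S3. This is 1 of the 8 genes, and its run extends over 12 bases from 5 bases before the start. Of all 35116 promoter entries of the same table, 4.07% had the motif at that position. Within 10 bases on either side it was found at 4 of the 15 starts, against 33.5% of all entries. These starts belong to 4 of the 8 genes (EIF1, EIF2S3, EIF5 and EIF6), and genes with several starts had more chances of a match. In EIF6 the marked run of 6 letters begins at the edge of the search, 10 bases before the upstream start. Whether it extends further upstream was not examined. The downstream start of EIF6 has none. The run of EIF1 has 7 letters and begins 7 bases before the start. That at the downstream start of EIF5 has 6 letters and begins 6 bases before it. The runs of EIF1, EIF5 and EIF6 thus all end before the annotated first base of the transcript. EIF1AX, EIF2S1, EIF5B, the upstream start of EIF5 and the 6 starts of EIF5A had no match in this window. These letters are a description of annotated starts, since the start used in HCT116 was not measured.

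EIF6 (ENSG00000242372), whose protein keeps large subunits from joining small subunits, had the clearest excess in the LARP1 IP. Levels are given in CPM, counts set relative to the library total after TMM scaling, which makes the bulk of genes equal between libraries. Every level is therefore relative to the other RNAs of its library, and the amount of RNA recovered was not measured. With LARP1 antibody the EIF6 level was 39.4 and 55.1 CPM, with IgG 11.0 and 9.43 CPM, and in Input 14.4 and 9.93 CPM. Both LARP1 libraries lay well above all 4 control libraries, whose own ranges overlapped. The raw counts behind these levels were 376 and 296, 119 and 95, and 43 and 32, so counting error is largest in Input. Its mean level in the LARP1 IP was 47.2 ± 11.0 CPM (SD, n = 2). The IgG mean was 10.2 ± 1.11 CPM and the Input mean 12.2 ± 3.18 CPM (SD, n = 2 for both).

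EIF6 was 4.61-fold higher with LARP1 antibody than with IgG, or 2.21 ± 0.41 as a log2 fold change with its SE (edgeR quasi-likelihood test, Benjamini-Hochberg adjusted p = 0.00442). It was also 3.88-fold higher than Input, or 1.95 ± 0.42 in log2 (adjusted p = 0.0148 by edgeR). The 95% intervals of the 2 log2 fold changes ran from 1.31 to 3.10 and from 1.04 to 2.87. In both comparisons EIF6 ranked above 94.6% of tested genes, at rank 582 over IgG and 580 over Input. Both comparisons use the same LARP1 libraries and are not independent of each other. In the edgeR fit, the call over Input was lost without LARP1 IP replicate 2 (log2 fold change 1.70, adjusted p = 0.0745), without Input replicate 1 (2.24, adjusted p = 0.114) and without Input replicate 2 (1.65, adjusted p = 0.263). Without either one of the Input libraries edgeR called 0 of all 10788 genes against Input, whereas DESeq2 called 346 higher and 64 lower without replicate 1, and 239 and 80 without replicate 2. DESeq2 kept the call over Input without LARP1 IP replicate 2 and without Input replicate 1, and lost it without Input replicate 2 (1.63, adjusted p = 0.128).

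**Figure D1:**
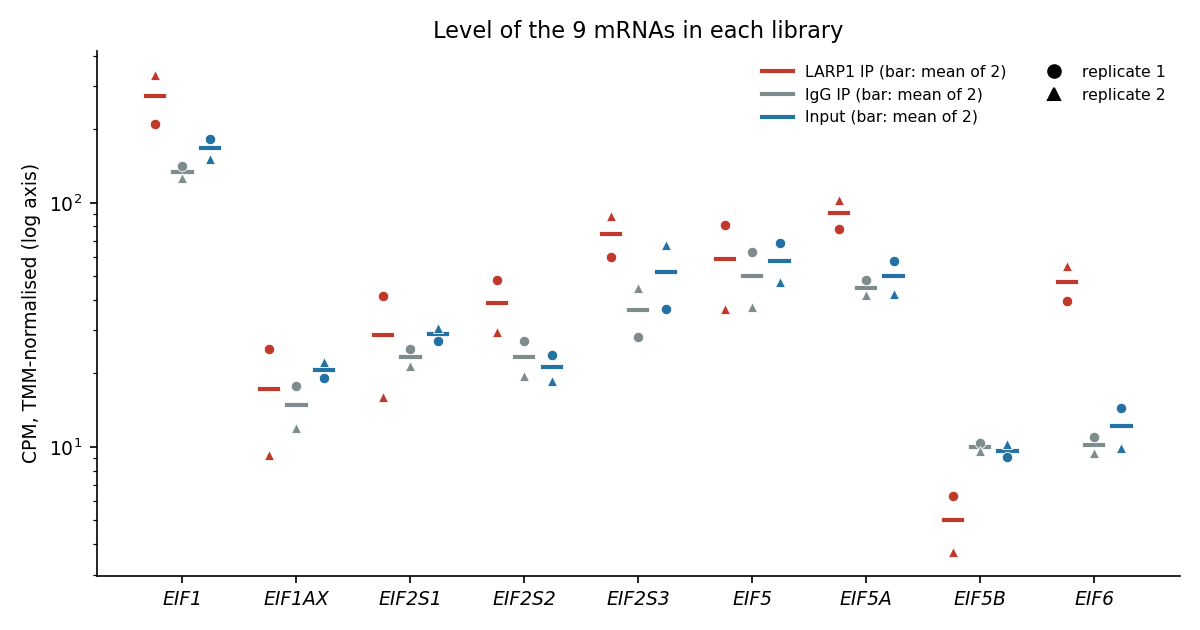
Level of each mRNA in CPM (log axis) in the LARP1 IP (red), IgG IP (grey) and Input (blue); circles are replicate 1, triangles replicate 2 and bars the mean of 2 libraries. Heights are not comparable between genes, since CPM is not divided by transcript length. For EIF6 both red points lie above the 4 control points, and for EIF5B both lie below them.

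Across the 9 genes, edgeR called 1, EIF6, higher in the LARP1 IP than in the IgG IP, where 8.54% of all tested genes were called higher. It called 0 of the 9 lower, against 2.29% of tested genes. At an unadjusted edgeR p under 0.05, 4 of the 9 were higher and 1 (EIF5B) lower, beside 1657 and 1056 of all 10788 genes. DESeq2 called 0 of the 9 lower, beside 248 of all genes. Over Input, edgeR again called 1 of 9 higher (4.63% of tested genes) and 0 of 9 lower (1.52% of tested genes). At an unadjusted edgeR p under 0.05, 2 of the 9 were higher and 0 lower, beside 1402 and 859 of all genes. DESeq2 called 0 of the 9 lower than Input, beside 184 of all genes. EIF6 was thus the 1 member that edgeR called above both controls, as were 4.37% of tested genes. With 9 genes, these shares do not set the group apart from the rest of the transcriptome. The median log2 fold change of the 9 was 0.74 over IgG and 0.51 over Input, beside medians of -0.0649 and 0.0328 over all tested genes.

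Libraries of the LARP1 IP and the IgG IP did not overlap for 6 genes. EIF1, EIF2S2, EIF2S3, EIF5A and EIF6 (5 of 9) had both LARP1 libraries higher, as did 27.3% of tested genes, and EIF5B (1 of 9) had both lower, as did 25.9%. Against Input, EIF1, EIF2S2, EIF5A and EIF6 (4 of 9) had both LARP1 libraries higher, as did 28.8% of tested genes, and EIF5B (1 of 9) had both lower, as did 22.8%. With 2 libraries a group, 0.33 is the smallest two-sided p that exact permutation allows, so no gene was tested in that way.

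**Figure D2:**
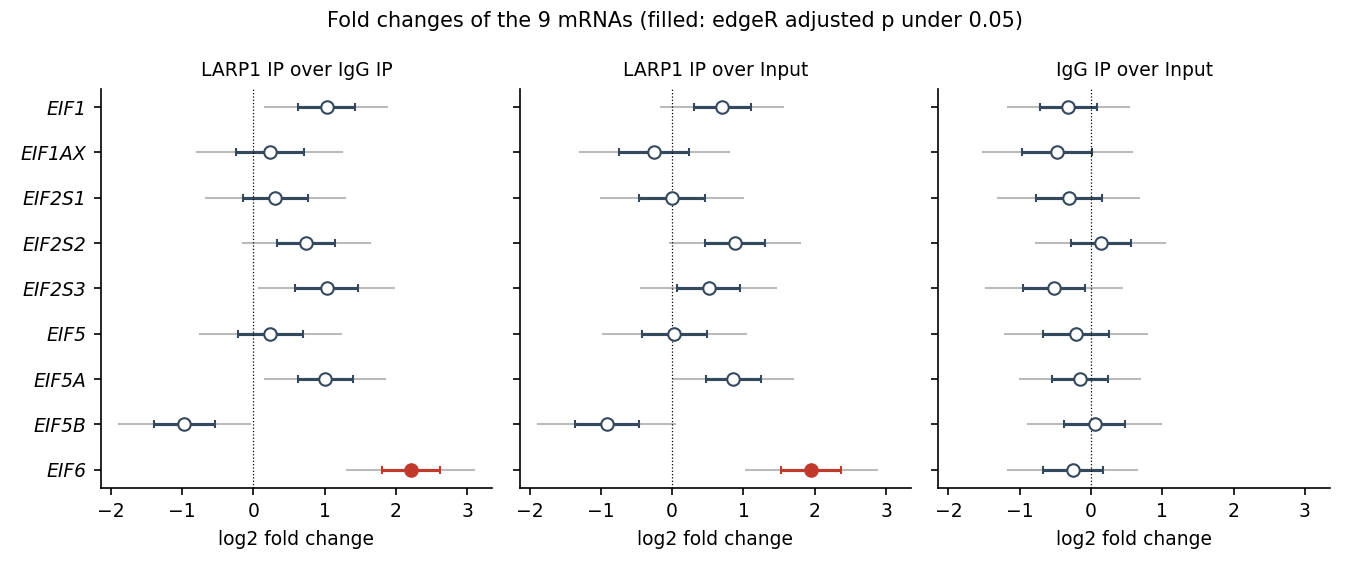
Log2 fold change of each mRNA in the 3 comparisons; points are edgeR estimates, capped bars the SE, grey lines the 95% interval, and filled red points have an adjusted p under 0.05. EIF6 is filled in both LARP1 comparisons, at 2.21 and 1.95, and no point is filled for the IgG IP over Input.

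EIF1 (ENSG00000173812), whose protein guards the choice of start codon, was at 210.8 and 335 CPM with LARP1 antibody. Its control levels were 141.2 and 126.5 CPM for IgG, and 183.2 and 151.8 CPM for Input. Both LARP1 libraries were above the 4 controls, with replicate 2 far above and replicate 1 close to the higher Input library. The log2 fold change was 1.03 ± 0.40 over IgG (95% interval 0.17 to 1.88; edgeR adjusted p = 0.122) and 0.70 ± 0.40 over Input (-0.15 to 1.56; adjusted p = 0.336). Neither passed the threshold of 0.05. EIF1 passed over IgG by DESeq2 without LARP1 IP replicate 1 (log2 fold change 1.30, adjusted p = 0.0393).

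EIF1AX (ENSG00000173674), which encodes eIF1A, the partner of eIF1 on the small subunit, had LARP1 values on both sides of the controls. Its 2 LARP1 libraries stood at 25.3 and 9.30 CPM, the IgG libraries at 17.7 and 12.0 CPM and the Input libraries at 19.1 and 22.4 CPM. The LARP1 libraries held both the highest and the lowest value of the 6. The log2 fold change was 0.23 ± 0.48 over IgG (95% interval -0.79 to 1.25; edgeR adjusted p = 0.812) and -0.25 ± 0.49 over Input (-1.29 to 0.80; adjusted p = 0.822).

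The 3 mRNAs of eIF2 differed in their estimates, with none past the threshold in the main test. EIF2S3 (ENSG00000130741), the gamma subunit that binds GTP and the initiator tRNA, was at 60.2 and 88.5 CPM with LARP1 antibody, against 28.1 and 44.7 CPM with IgG. Its Input level was 36.9 and 67.4 CPM. Both LARP1 libraries were above both IgG libraries but overlapped with Input, where replicate 2 held 1.83 times the level of replicate 1. Its log2 fold change was 1.03 ± 0.44 over IgG (95% interval 0.08 to 1.97, edgeR adjusted p = 0.16) and 0.51 ± 0.44 over Input (-0.44 to 1.46, adjusted p = 0.554). Of the 21 alternatives, only the replicate number as a block called it over IgG (log2 fold change 1.04, edgeR adjusted p = 0.0286). That fit called 1526 of all genes higher, against 921 without the block.

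EIF2S2 (ENSG00000125977), the beta subunit that contacts eIF5, was at 48.3 and 29.6 CPM with LARP1 antibody. The controls were at 27.1 and 19.6 CPM for IgG and 23.8 and 18.6 CPM for Input. Both LARP1 libraries were above the 4 controls, the lower of them only just. Its log2 fold change over IgG was 0.74 ± 0.41 (95% interval -0.14 to 1.63) and that over Input 0.88 ± 0.42 (-0.03 to 1.79). By edgeR the adjusted p was 0.287 and 0.255.

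EIF2S1 (ENSG00000134001) encodes the alpha subunit, whose phosphorylation slows initiation under stress. Its LARP1 libraries were at 41.5 and 16.0 CPM, beside 25.1 and 21.4 CPM for IgG and 27.2 and 30.7 CPM for Input. As for EIF1AX, the 2 LARP1 libraries were the highest and the lowest of the 6. The log2 fold change was 0.31 ± 0.46 over IgG (95% interval -0.67 to 1.29; edgeR adjusted p = 0.722) and 0.00 ± 0.46 over Input (-1 to 1; adjusted p = 1).

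EIF5 (ENSG00000100664), which activates the GTPase of eIF2, was near the bulk of genes in both comparisons. The LARP1 libraries were at 81.2 and 36.8 CPM, beside 62.9 and 37.4 CPM for IgG and 68.4 and 47.5 CPM for Input. Its log2 fold change was 0.24 ± 0.46 over IgG (95% interval -0.75 to 1.23; edgeR adjusted p = 0.798) and 0.03 ± 0.46 over Input (-0.97 to 1.03; adjusted p = 0.985). The groups overlapped in every comparison of EIF5.

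EIF5A (ENSG00000132507), whose protein carries the modified residue hypusine, was at 78.2 and 102.9 CPM with LARP1 antibody. The IgG libraries were at 48.1 and 41.8 CPM and the Input libraries at 57.7 and 42.2 CPM, so both LARP1 libraries were above all controls. The log2 fold change was 1.01 ± 0.39 over IgG (95% interval 0.17 to 1.85) and 0.86 ± 0.39 over Input (0.01 to 1.70). The edgeR adjusted p of 0.122 and 0.232 did not pass in the main test. With the replicate number as a block, EIF5A passed over IgG (log2 fold change 1.02, edgeR adjusted p = 0.0382), as did 1526 of all genes.

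EIF5B (ENSG00000158417), the GTPase of subunit joining, was the only one of the 9 with both LARP1 libraries below all controls. With LARP1 antibody it was at 6.29 and 3.72 CPM, against 10.4 and 9.62 CPM with IgG and 9.06 and 10.2 CPM without antibody. The counts were few, 60 and 20 with LARP1 antibody and 27 and 33 in Input. The log2 fold change was -0.97 ± 0.43 against IgG (95% interval -1.89 to -0.05) and -0.92 ± 0.45 against Input (-1.88 to 0.04). Neither passed by edgeR (adjusted p = 0.174 and 0.258).

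**Figure D3:**
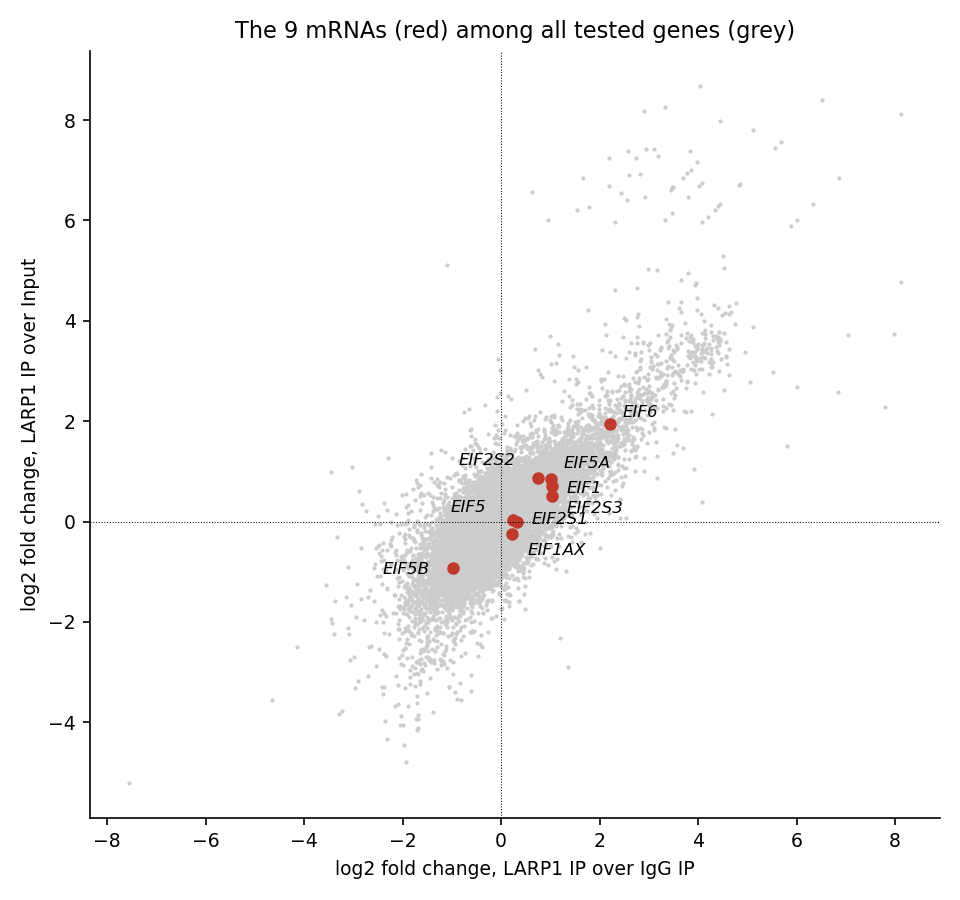
Log2 fold change of the LARP1 IP over Input against that over the IgG IP for the 10788 tested genes (grey) with the 9 mRNAs in red; both axes share the LARP1 libraries, so the diagonal trend is not a result. EIF6 lies above the other 8 on both axes, at 2.21 and 1.95, EIF5B lies at -0.97 and -0.92, and the others lie between them.

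The level of a gene relative to the bulk depends on the scaling, because the composition of the LARP1 IP differs from that of the controls. The 2 genes with the most counts left 3823470 and 3256012 counts for all other genes with LARP1 antibody, 2144182 and 2299877 with IgG, and 752862 and 778680 without antibody. Scaling to total counts without those 2 genes moved the median of all genes from -0.0649 to -1.24 over IgG and from 0.0328 to -0.923 over Input. On that scale EIF6 had log2 fold changes of 0.97 (edgeR adjusted p = 0.0841) and 0.95 (adjusted p = 0.145) and remained positive but not called. Those of EIF1, EIF1AX, EIF2S1, EIF2S2, EIF2S3, EIF5 and EIF5A were negative in both comparisons, and EIF5B passed as lower in both (-2.10 and -1.83, edgeR adjusted p = 0.0146 and 0.0487), as did 3985 of 10786 genes against IgG and 1114 against Input. Plain total counts put that median at 0.145 over IgG and 1.75 over Input. On this scale edgeR called EIF1 and EIF6 higher than IgG (EIF1 at 1.17, adjusted p = 0.0418), as it did 1004 of all 10788 genes. It called 8 of the 9 higher than Input, all but EIF5B, whose value turned to 0.84. Of all 10788 genes, 6550 were called higher than Input on that scale, so the 8 are not a result about the members. Subtracting the median of all genes largely removes any change of scaling. Values set against it therefore do not show how far a result depends on the scaling. Over the 22 settings, EIF6 lay 2.04 to 2.49 above that median over IgG and 1.58 to 2.16 above it over Input. EIF5B lay at -1.36 to -0.57 and -1.44 to -0.61 from it.

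**Figure D4:**
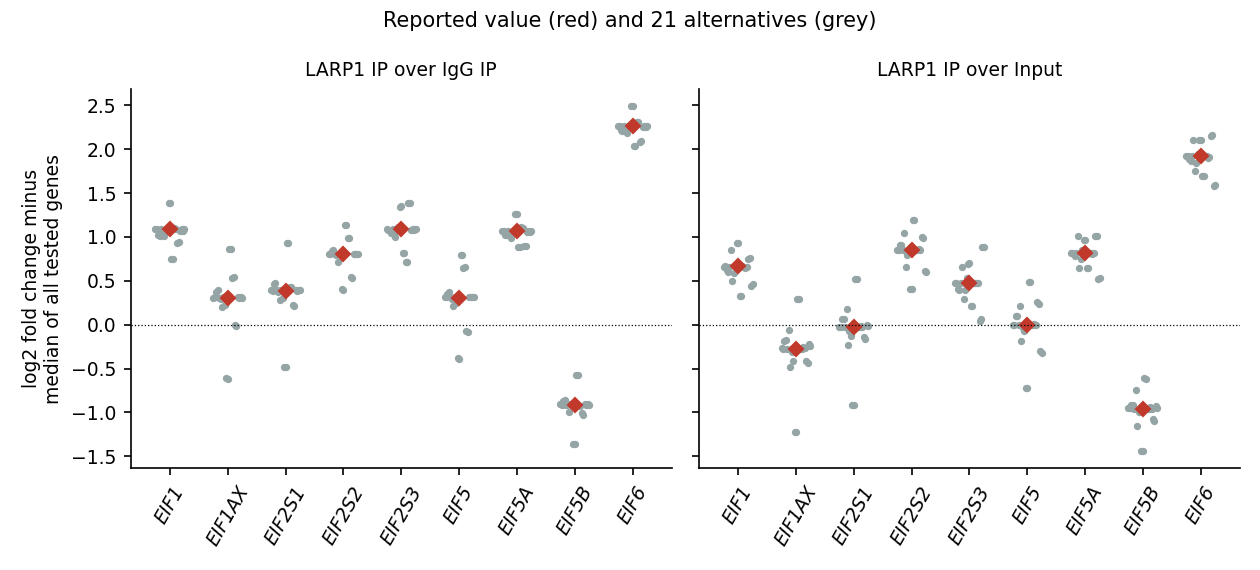
Log2 fold change of each mRNA minus the median of all tested genes, as reported (red diamonds) and under the 21 alternatives (grey dots), for the LARP1 IP over the IgG IP (left) and over Input (right). EIF6 stays between 1.58 and 2.49 and EIF5B between -0.57 and -1.44 in both panels, while EIF1AX, EIF2S1 and EIF5 have values on both sides of 0. Subtracting the median largely removes a change of scaling, so closeness among the scaling alternatives is not a result.

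Ratios of 2 mRNAs within a library need no scaling. For every other member, the count of EIF6 relative to it was higher in both LARP1 libraries than in all 4 controls (8 of 8 ratios). EIF1 held 5.34 and 6.08 counts per count of EIF6 in the LARP1 IP, against 12.7 to 15.3 in the controls. EIF2S3 held 1.53 and 1.61 counts per count of EIF6, against 2.55 to 6.78. EIF5B was the mirror image, lower relative to each of the other 8 in both LARP1 libraries than in any control (8 of 8 ratios). EIF2S2, for example, held 7.67 and 7.95 counts per count of EIF5B in the LARP1 IP and 1.82 to 2.63 in the controls. Of all 36 ratios between members, 18 lay on one side of the control range in both LARP1 libraries, as did 35% of the ratios between all 10468 tested genes with a count in every library. All but 3 of these involved EIF6 or EIF5B, and those 3 had EIF2S2 raised relative to EIF1AX, EIF2S1 and EIF5. Within eIF2, EIF2S1 held 0.541 and 0.861 counts per count of EIF2S2 in the LARP1 IP and 0.928 to 1.65 in the controls. Set against the 10459 such genes outside the group, EIF6 was above the control range relative to 84.8% of them, EIF5A to 47.1%, EIF2S2 to 39.3% and EIF1 to 38.7%. For EIF2S3 this share was 31.5%, for EIF5 11.8%, for EIF2S1 11.3%, for EIF1AX 7.58% and for EIF5B 1.39%. EIF5B was below the control range relative to 47.9%, and the other 8 relative to 1.73% (EIF6) to 10.4% (EIF1AX). These shares count 1 side each, whereas the 35% over all genes counts either side. These ratios are descriptions over 2 and 4 libraries, and no test was made of them.

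**Figure D5:**
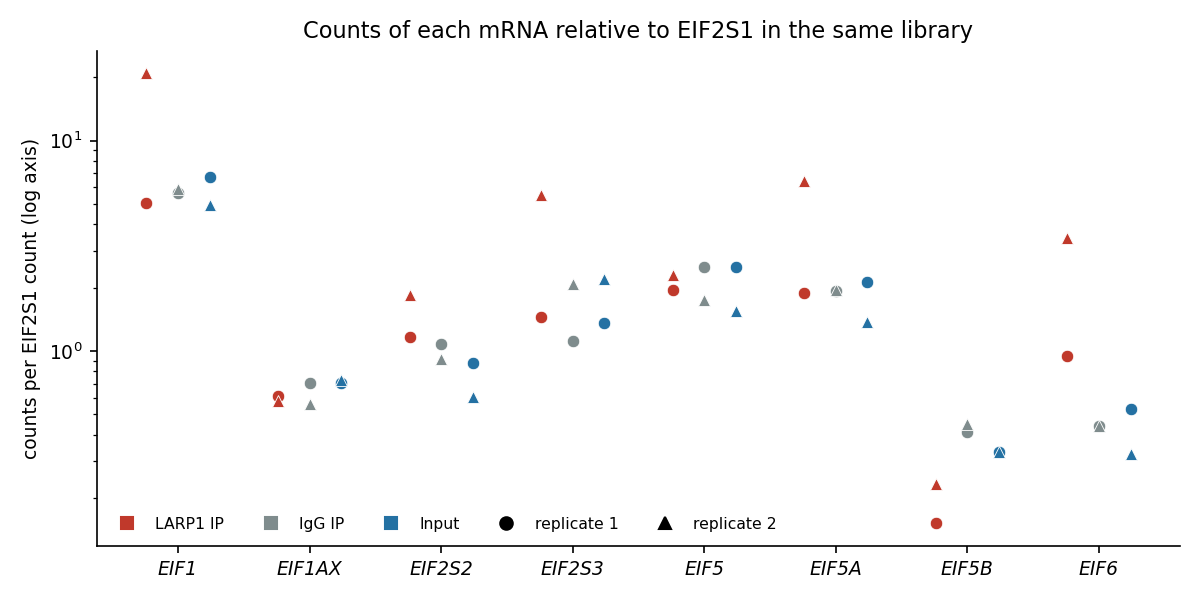
Counts of each mRNA per count of EIF2S1 in the same library (log axis), by group (colour) and replicate (shape). EIF6 held 0.949 and 3.44 counts per EIF2S1 count in the LARP1 IP and 0.323 to 0.531 in the controls. For EIF1, EIF2S3, EIF5A and EIF6 the LARP1 IP replicate 2 stands far above all other libraries. The level of EIF2S1 itself was highest in LARP1 IP replicate 1 and lowest in replicate 2, which moves every ratio.

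The 9 mRNAs did not share 1 difference between the LARP1 libraries. Log2 CPM in replicate 2 minus that in replicate 1 was 0.67 for EIF1, 0.55 for EIF2S3, 0.48 for EIF6 and 0.40 for EIF5A, beside a median of 0.12 over all tested genes. It was -1.42 for EIF1AX, -1.36 for EIF2S1, -1.13 for EIF5, -0.72 for EIF5B and -0.70 for EIF2S2. Counts of EIF1 per count of EIF2S1 were 5.07 in replicate 1 and 20.9 in replicate 2, against 4.94 to 6.74 in the 4 controls. Likewise EIF5A had 1.88 and 6.43 counts per EIF2S1 count, against 1.37 to 2.12, and EIF2S3 had 1.45 and 5.53, against 1.12 to 2.19. In replicate 1, therefore, the ratios of EIF1, EIF2S3 and EIF5A to EIF2S1 lay within the control range. EIF2S1 itself was at 41.5 CPM in LARP1 IP replicate 1 and 16.0 CPM in replicate 2, the highest and lowest of all libraries. Its own difference lowers these ratios in replicate 1 and raises them in replicate 2. By CPM, EIF1 and EIF5A were above all 4 controls in both LARP1 libraries, while EIF2S3 overlapped with Input. The ratio of EIF6 to EIF2S1 already exceeded the controls in replicate 1, at 0.949 against 0.323 to 0.531. EIF1AX kept its ratio to EIF2S1, at 0.609 and 0.581 in the LARP1 IP and 0.56 to 0.727 in the controls.

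The signs of EIF1AX, EIF2S1 and EIF5 over IgG rested on LARP1 IP replicate 1. Without it their log2 fold changes were -0.68, -0.54 and -0.45, and none passed (edgeR adjusted p = 0.44, 0.524 and 0.619). EIF6 kept its call over IgG without either one of the LARP1 libraries, and without LARP1 IP replicate 1 its log2 fold change was 2.43.

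The control comparison showed how these mRNAs behave without LARP1 antibody. Between the IgG IP and Input, edgeR called 0 of the 9 higher and 0 lower, as it did for 0% of all tested genes in either direction. At an unadjusted edgeR p under 0.05 there were 0 of the 9, beside 384 of all tested genes higher and 341 lower. By DESeq2, 20 genes were called higher and 17 lower, with 0 of the 9 among them. The log2 fold changes ran from -0.52 ± 0.44 for EIF2S3 to 0.14 ± 0.42 for EIF2S2, with a median of -0.25 beside 0.00822 over all tested genes. EIF6 was at -0.25 ± 0.42 (95% interval -1.16 to 0.65; edgeR adjusted p = 0.943). Libraries did not overlap for EIF1, EIF1AX and EIF2S1, all lower in the IgG IP (3 of 9, beside 19.3% of tested genes), and 0 of 9 had both IgG libraries higher (19.2% of tested genes). Scaled to total counts, where the all-gene median was 1.51, all 9 values were positive, and EIF1, EIF2S2, EIF5A, EIF5B and EIF6 passed, as did 5808 of all 10788 genes.

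Several of these genes have pseudogene copies that could share reads, and how the counting treated reads with several matches is not given in the sources used here. RefSeq lists 7 pseudogenes named after EIF1, 7 after EIF2S2, 3 after EIF5A, 2 each after EIF1AX, EIF2S3 and EIF5, and 0 after EIF2S1, EIF5B and EIF6. EIF6 and EIF5B, the extremes of the group, are among the 3 without such a named copy. Copies under other names were not counted, and whether reads were shared was not tested.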

How the data were processed

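The authors deposited raw read counts per gene, 1 table per library. The submitters' processing notes name CASAVA 1.8 and TopHat2 2.1.1, also Bowtie2, featureCounts and Subread 1.20.6, and the build GRCh38. Annotation release and strand setting: not given in the sources used here. Stranded libraries were made without poly(A) selection, per the labels' protocols. Library totals were 4135463 to 8069554 counts.

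The main test was edgeR 4.0.16 (R 4.3.3): filterByExpr (minimum count 10), TMM, and 1 quasi-likelihood fit of all 6 libraries by group, with 3 residual degrees of freedom. P-values were adjusted (Benjamini-Hochberg) over the 10788 tested genes, with a threshold of 0.05. The SE is the log2 fold change divided by the square root of F, and the prior count was 0.125. Alternatives included DESeq2 1.42.0. The labels name no separate cultures, so intervals and p-values cover only the spread among these libraries, which may be technical.

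The members and lists were chosen with earlier results of these data known. All 9 members are described, named by the Ensembl IDs that defined the group. No further ID could be named through the RefSeq gene table, where 0 rows hold an Ensembl ID. The lists of partner factors, other translation genes and cell type markers were therefore not applied, and the HCT116 label was not checked against markers.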

Additional observations from a re-analysis of the deposited data

How the results depend on the processing

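Values are log2 fold changes unless called counts, and beyond what a setting itself alters (scaling, libraries, genes tested) the cause of a change was not tested. Of 567 values (27 results under 21 alternatives), 477 kept direction and side of the threshold, 71 changed sign, and among the others 13 gained a call and 6 lost one. Of those that changed sign, 5 also gained a call, which makes 18 gained in all. EIF6 passed over IgG in 20 of 21 alternatives and over Input in 16. Depth limits EIF5B and Input most.

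With the 2 most abundant genes left out of total counts, values over IgG were EIF1 -0.23, EIF1AX -0.85, EIF2S1 -0.76, EIF2S2 -0.39, EIF2S3 -0.19, EIF5 -0.87 and EIF5A -0.22, and those over Input EIF1 -0.33, EIF2S2 -0.02, EIF2S3 -0.52, EIF5 -0.83 and EIF5A -0.14. For the IgG IP over Input it gave EIF5 0.04 and EIF5A 0.08. Members called higher fell to 0 over IgG, over Input and over both, and 1 (EIF5B) was called lower in each LARP1 comparison. Of all 10786 genes, 356 were called higher and 3985 lower over IgG, and 181 and 1114 over Input.

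Total counts gave, over Input, EIF1AX 1.56, EIF2S1 1.81 and EIF5B 0.84. For the IgG IP over Input they gave EIF1 and EIF2S1 1.21, EIF1AX 1.05, EIF2S3 0.95, EIF5 1.35, EIF5A 1.38 and EIF6 1.28. Members called higher were 2 over IgG, 8 over Input, 2 over both and 5 for the IgG IP over Input, where 1004, 6550, 1004 and 5808 of all 10788 genes were.

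EIF5 over Input was at 0.03 as reported, -0.01 with DESeq2 or its size factors, -0.1 with upper-quartile factors, -0.14 with a minimum count of 50, and -0.03 with the 4 libraries of the comparison. EIF2S1 over Input was 0.18 without a low-count filter. For the IgG IP over Input, EIF5A was 0 without that filter and EIF5B 0 with a minimum count of 50.

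With the replicate number as a block, 3 members were called over IgG (EIF6, EIF2S3 at 1.04 and EIF5A at 1.02, edgeR adjusted p = 0.0286 and 0.0382) and EIF5 over Input was -0.05. The block changed no other call of a member, and over all genes it called 1526 higher and 909 lower than IgG, against 921 and 247 without it. Libraries of 1 number deviated together across genes (correlation 0.519 for the LARP1 and IgG IPs, 0.134 for the LARP1 IP and Input, 0.271 for the IgG IP and Input), but the labels give no shared batch.

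Leaving out 1 library at a time (the lone library is assumed to vary like the others) gave ranges, over IgG, of -0.68 to 0.76 for EIF1AX, -0.54 to 0.83 for EIF2S1 and -0.45 to 0.69 for EIF5. Over Input they were -1.16 to 0.29, -0.86 to 0.52 and -0.65 to 0.49. For the IgG IP over Input they were -0.12 to 0.31 for EIF2S2, -0.63 to 0.07 for EIF5, -0.45 to 0.05 for EIF5A, -0.08 to 0.06 for EIF5B and -0.59 to 0 for EIF6. Members called higher over Input and over both controls ran from 0 to 1.

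With DESeq2, leaving out LARP1 IP replicate 1 gave EIF1AX -0.7, EIF2S1 -0.56 and EIF5 -0.47 over IgG, EIF5 -0.7 over Input, and 2 members called over IgG (EIF1 and EIF6). Without LARP1 IP replicate 2, EIF1AX was 0.29 and EIF2S1 0.53 over Input. Without IgG IP replicate 1, EIF5 over Input was -0.02, and for the IgG IP over Input EIF2S2 was -0.17 and EIF5B -0.06. Without IgG IP replicate 2, EIF1AX was -0.04 and EIF5 -0.1 over IgG, EIF5 was -0.03 over Input, and EIF5 was 0.07 for the IgG IP over Input. Without Input replicate 1, the IgG IP over Input was 0.05 for EIF5, 0.06 for EIF5A, -0.07 for EIF5B and 0 for EIF6. Without Input replicate 2, EIF2S1 was 0.02 and EIF5 -0.28 over Input, EIF2S2 was -0.09 for the IgG IP over Input, and 0 members were called over Input or over both controls.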

Other observations

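Among the 9 mRNAs, the most alike profiles over the 6 libraries, as the root mean square distance of centred log2 CPM, were those of EIF1 and EIF5A (0.13) and of EIF1AX and EIF2S1 (0.15), while EIF5B and EIF6 were the farthest apart (1.49). EIF1 and EIF1AX, whose proteins act together on the small subunit, were at 0.79. EIF2S1 was at 0.48 from EIF2S2 and 0.75 from EIF2S3, the other subunits of eIF2. The next closest pair was EIF2S1 and EIF5 (0.26). Log2 CPM in LARP1 IP replicate 2 minus replicate 1 was -1.42 for EIF1AX, -1.36 for EIF2S1 and -1.13 for EIF5. For EIF1 and EIF5A it was 0.67 and 0.40, so this difference between the LARP1 libraries enters the distances. The profiles share libraries and depth, and no test was made of these distances.

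Among the 3057 other genes whose mean level reached 10 CPM, those with the profile nearest to EIF6 over the 6 libraries were ENSG00000173465.7 (distance 0.073) and ENSG00000164405.10 (0.098). Their names are not paired with the IDs in the sources used here. They stood at 23.9 and 61.4 CPM in the LARP1 IP, 5.06 and 12.9 CPM in the IgG IP and 6.02 and 17.7 CPM in Input.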
